A study of Homo sapiens with 414 samples.

Results

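The genes described here are 30 genes of cholesterol and fatty acid synthesis that are known targets of the sterol regulatory element-binding proteins (SREBPs), taken by name from the 19084 genes measured. They fall into a sterol branch of 20 genes and a fatty acid branch of 10, and each of the 30 passed the filter on low values, as did 16318 genes in all. The cultures were H1-NPC, neural progenitors made from H1, an established line of human embryonic stem cells. Each received 1 compound at 1 dose, and RNA was sequenced after 1, 2, 3, 4, 6, 8, 10, 15, 21, 27 or 39 days. There were 266 libraries of 29 compounds that the submitters labelled toxic and 148 libraries of 16 labelled non-toxic. A compound had at most 1 library on a given day. DMSO at 0.1% gave 11 of the non-toxic libraries. The others came from cultures given drugs such as acetaminophen, aspirin, ibuprofen, naproxen sodium and amoxicillin, or glyphosate, glucosamine, glycerol, sweeteners, sugars or polymers. The non-toxic libraries used for comparison are thus mostly treated cultures, not vehicle alone. All groups shared this 1 cell line, and the labels name no separate cultures. The days of a compound stood in for its replicates, so p-values measure the spread between these libraries.

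SREBPs are made as membrane proteins of the endoplasmic reticulum and are held there while sterols are plentiful. When sterols run low they are cut free and switch on the enzymes that make cholesterol and unsaturated fatty acids. The protein of SREBF2 is best known for the sterol branch and that of SREBF1 for the fatty acid branch, with overlap between them. In the nervous system cholesterol is made locally, by neural progenitors and later in large part by astrocytes.

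To show where SREBPs could bind, promoter windows of 250 bases before to 50 after each gene's start were taken from RefSeq (GRCh38.p14), which matched 26 of the 30 genes. The classical sterol regulatory element, TCACNCCAC on either strand, lay in 1 of these 26 genes, SREBF2 itself, and in 1.39% of all 27305 genes with a window. A looser form, TCANNCCAC, was chosen after the first search. It lay in 3 of the 26, SREBF2, INSIG1 and ACLY, and in 4.74% of all genes. The match starts 133 bases before the start of SREBF2 (chr22:41832855-41833154, plus strand), 108 bases before that of INSIG1 (chr7:155297628-155297927, plus strand) and 244 bases before that of ACLY (chr17:41918973-41919272, minus strand). These 3 windows are given because they hold the looser form, with the match in capitals. The other listed window of ACLY held no match.
SREBF2: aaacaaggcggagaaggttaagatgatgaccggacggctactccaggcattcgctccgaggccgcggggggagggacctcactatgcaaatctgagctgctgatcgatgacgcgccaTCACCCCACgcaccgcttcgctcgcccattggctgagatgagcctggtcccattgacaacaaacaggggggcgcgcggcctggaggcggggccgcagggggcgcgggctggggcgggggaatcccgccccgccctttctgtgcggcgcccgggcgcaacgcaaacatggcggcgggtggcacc
INSIG1: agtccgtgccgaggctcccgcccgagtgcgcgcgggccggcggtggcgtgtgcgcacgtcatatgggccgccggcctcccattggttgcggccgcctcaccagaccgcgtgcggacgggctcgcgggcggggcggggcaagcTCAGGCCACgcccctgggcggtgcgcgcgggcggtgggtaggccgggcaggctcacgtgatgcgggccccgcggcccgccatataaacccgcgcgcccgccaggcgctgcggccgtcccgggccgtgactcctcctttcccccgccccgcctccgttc
ACLY: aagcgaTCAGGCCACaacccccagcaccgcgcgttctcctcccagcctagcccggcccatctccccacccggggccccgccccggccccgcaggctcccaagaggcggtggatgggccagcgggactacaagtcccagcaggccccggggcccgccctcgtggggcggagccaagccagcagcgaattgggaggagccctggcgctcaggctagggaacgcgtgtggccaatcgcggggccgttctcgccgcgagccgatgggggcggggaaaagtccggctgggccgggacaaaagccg
The letters CCAAT, bound by NF-Y, lay in 20 of the 26 genes against 39.7% of all genes, and GGGCGG, bound by SP1, in 25 of 26 against 48.3%, both strands searched. A match is only a run of letters, and no binding was measured here.

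In the non-toxic libraries every one of these genes was expressed on every day, and their levels changed with time in different ways by branch and role. Levels are in TPM, which scales transcripts to a fixed library total and corrects for transcript length. The highest on day 1 was FADS2, the desaturase that starts polyunsaturated fatty acid synthesis, with HMGCS1, the entry enzyme of the mevalonate pathway, next. Lowest were LPIN1, a phosphatidic acid phosphatase, and ACSS2, which makes acetyl-CoA from acetate. HMGCS1 averaged 606 ± 19.8 TPM (SD, n = 16) on day 1, 802 ± 27.0 on day 4 (n = 16), 497 ± 14 on day 15 (n = 7) and 881 ± 130 on day 27 (n = 12). SCD, the stearoyl-CoA desaturase, averaged 592 ± 14.5 TPM (n = 16) on day 1, 1499 ± 140 on day 27 and 1489 ± 115 (n = 14) on day 39. FASN, the fatty acid synthase, averaged 327 ± 16.5 TPM on day 1 and 135 ± 9.91 on day 39. TMEM97, a sterol-responsive membrane protein, had the widest range of the 30 genes, from a day mean of 141 TPM on day 2 to 33.0 TPM on day 39, a 4.28-fold range. ACLY, the citrate lyase that supplies acetyl-CoA, had the narrowest, 1.37-fold between its lowest and highest day mean.

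**Figure D1:**
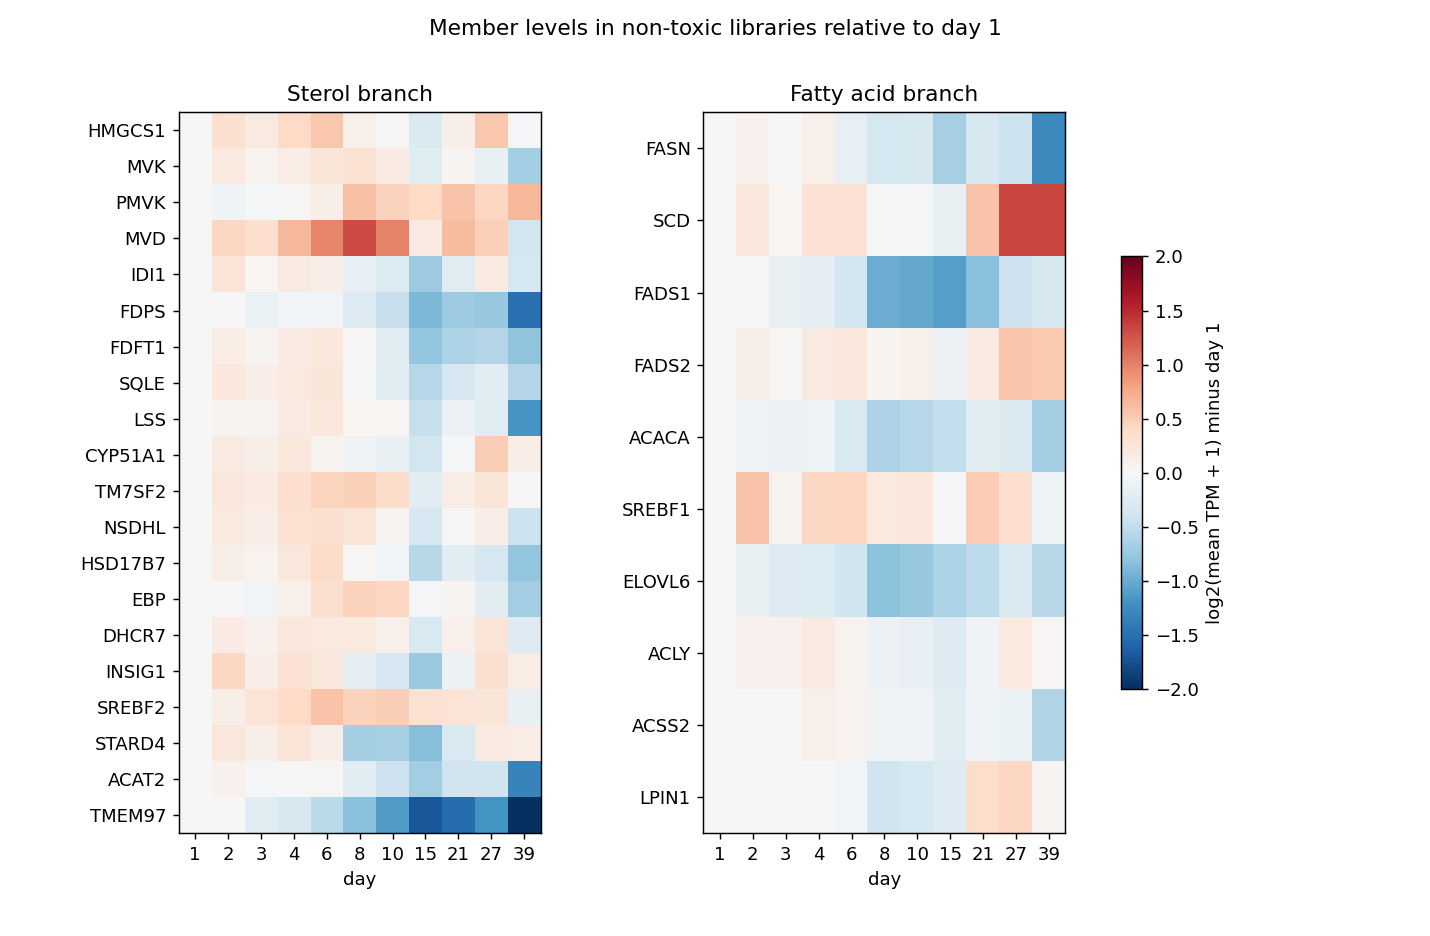
Change of each gene's level over days in the non-toxic libraries, as log2(mean TPM + 1) minus the value of day 1 (colour), with days along the horizontal axis and genes down the vertical axis. TMEM97, FDPS, LSS and ACAT2 are lowest on day 39, while SCD is highest on days 27 and 39.

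From day 1 to day 4, 21 of the 30 genes rose and 3 fell, where 26.1% and 29.7% of all tested genes rose and fell (limma, adjusted p under 0.05 over all 16318). Sterol enzymes led the rises on the log2(TPM + 1) scale, MVD by 0.64 ± 0.060 (SE), HMGCS1 by 0.40 ± 0.055 and the regulator SREBF2 by 0.40 ± 0.084. In the fatty acid branch SREBF1 rose by 0.42 ± 0.038, SCD by 0.28 ± 0.064 and FADS2 by 0.18 ± 0.040. TMEM97 (-0.32), FDPS (-0.06) and the elongase ELOVL6 (-0.27) were the 3 that fell. The branch medians were 0.21 for the sterol genes and 0.11 for the fatty acid genes, beside -0.01 over all genes.

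From day 4 to day 10 the pattern turned: 24 genes fell and 3 rose, against 35.8% falling and 32.8% rising among all genes. All 10 fatty acid genes fell, most of all FADS1 (-0.83 ± 0.088), ELOVL6 (-0.50 ± 0.077) and the acetyl-CoA carboxylase gene ACACA (-0.48 ± 0.083). In the sterol branch the sterol carrier STARD4 fell by 0.95 on the log2 scale, TMEM97 by 0.81 and INSIG1, which holds the SREBP complex in the endoplasmic reticulum, by 0.62. PMVK (0.44 ± 0.054), MVD (0.33 ± 0.061) and the sterol isomerase EBP (0.33 ± 0.043) rose.

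Between days 10 and 21 the sterol median was -0.10 and the fatty acid median 0.22, beside 0.16 over all genes. The sterol genes had 2 rises (STARD4 0.39, INSIG1 0.22) and 10 falls, led by TMEM97 and the squalene synthase FDFT1 (both -0.41) and EBP (-0.38), while 5 of the 10 fatty acid genes rose and none of those tested fell, led by LPIN1 (0.72 ± 0.062), SCD (0.62 ± 0.072) and ACACA (0.36 ± 0.092). Of all genes 49.6% rose and 12.5% fell over the same days, and the fatty acid genes rose at near that share. The other 5 fatty acid genes had limma adjusted p-values from 0.0848 to 0.975.

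Between days 21 and 39 most of the cholesterol enzymes fell. In the sterol branch 16 of 20 fell and 3 rose, and in the fatty acid branch 5 fell and 3 rose, against 42% falling and 28.8% rising among all genes. LSS, the lanosterol synthase, fell by 1.05 ± 0.039 on the log2 scale, MVD by 0.999 ± 0.069 and ACAT2, the cytosolic thiolase at the head of the pathway, by 0.94 ± 0.032. FASN fell by 0.95 ± 0.076, SREBF1 by 0.61 ± 0.043 and ACSS2 by 0.54 ± 0.046. The risers were STARD4 (0.45), INSIG1 (0.27), the demethylase CYP51A1 (0.17), SCD (0.75 ± 0.073), FADS1 (0.51 ± 0.099) and FADS2 (0.35 ± 0.046). Of 21 other pathway genes, 7 rose and 8 fell here, with MSMO1, a sterol oxidase, at 0.63. The summed TPM of 7 astrocyte markers rose over the same course, from a mean of 282 on day 1 to 2076 on day 21 and 4686 on day 39, that of 6 neuron markers from 722 to 3025 and 2590, and that of 5 mesenchymal markers from 1632 to 1805 and 4978. The sum of 6 dividing cell genes went down, from 1242 on day 1 to 310 on day 21 and 116 on day 39. In bulk RNA fewer cells of a type and less RNA per cell cannot be told apart, and the part of these markers in the members' course was not tested.

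Among the 44 compounds with enough libraries for a fit, the members were highest under dexamethasone and lowest under a group of cytotoxic compounds. The 15 non-toxic compounds other than ibuprofen had 0 of 450 member tests called by limma, where 0.0286% of their tests over all genes were called. Their branch medians lay between -0.04 and 0.04. The 14 toxic-labelled compounds not described below had 81 of 420 member tests called (19.3%), where 14.5% of all their tests were called. Their counts ran from 0 to 19 of the 30 genes, the highest under hydroxyurea (4 higher, 15 lower), which is more than for some of the compounds added below. Described below are the 8 toxic-labelled compounds with the most members called, the 1 non-toxic compound with at least 5 called, and 6 more toxic-labelled compounds chosen after their values were seen. In these fits the spread comes mostly from the many non-toxic libraries, so a compound whose own days disagree can still be called, and the days are therefore given. The hydroxyurea count stands without its own share of all genes called. So do counts from fits repeated with other controls, days or libraries, such as DMSO controls alone. Such counts do not tell the members from other genes.

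**Figure D2:**
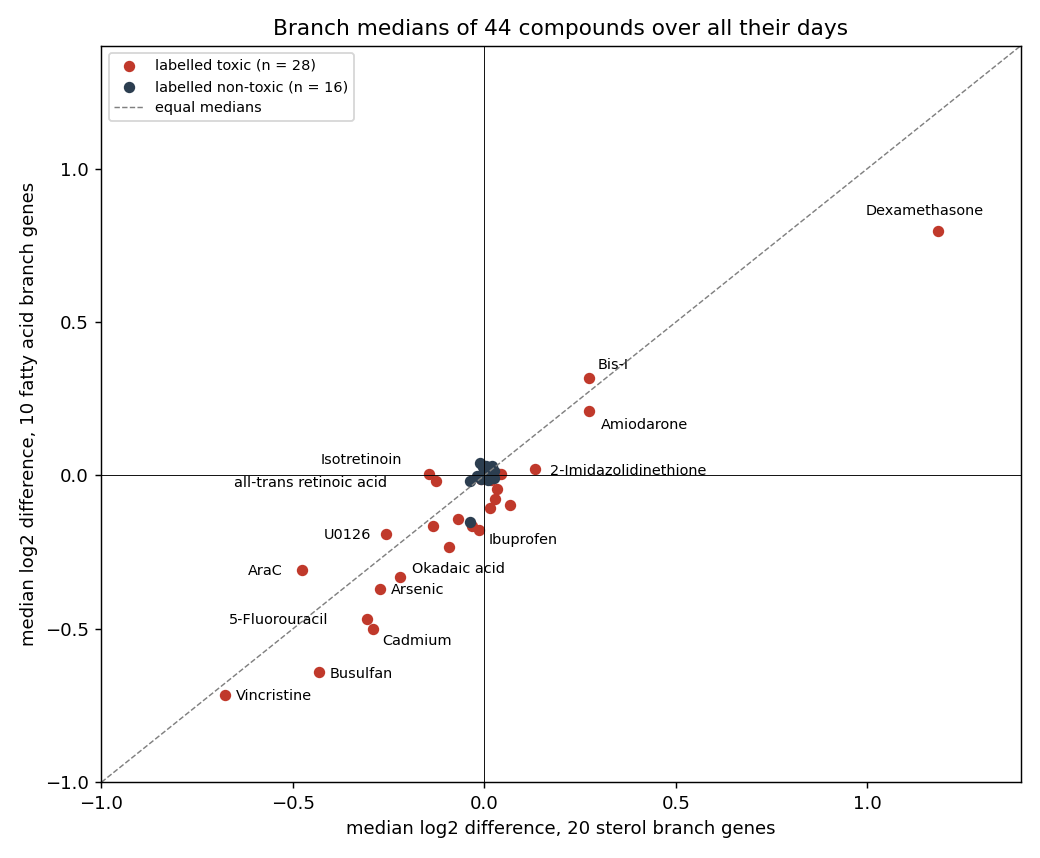
Median log2 difference of the 20 sterol genes (horizontal axis) against that of the 10 fatty acid genes (vertical axis) for each of 44 compounds over all their days. Dexamethasone stands alone at upper right, at 1.18 and 0.80, and vincristine is lowest, at -0.68 and -0.71.

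Dexamethasone, a synthetic glucocorticoid given at 100 µM and sampled on all 11 days, came with higher levels of nearly the whole set. Of the 30 genes 28 were higher and 1 lower, where 4.79% of all genes were higher and 8.68% lower. For 25 members each of the 11 libraries lay above every non-toxic library of its day. HMGCS1 ranged from 1220 TPM (day 15) through a median of 1788 to 2377 TPM (day 27), while the non-toxic day means ran from 497 to 881. The 2 sets of libraries did not overlap on any day. TMEM97 in the dexamethasone libraries had a lowest value of 115, a median of 297 and a highest of 481 TPM, against non-toxic day means of 33.0 to 141, and its log2 difference was 1.93 ± 0.066 (limma adjusted p = 4.89e-61). MVD was at 467, 687 and 1071 TPM by the same 3 measures, against 114 to 367, a difference of 1.73 ± 0.066 (limma adjusted p = 3.81e-55). For DHCR7, which makes cholesterol from its direct precursor, the 3 values were 318, 401 and 556 TPM against 106 to 157, and the difference was 1.57 ± 0.048 (limma adjusted p = 5.75e-67). INSIG1, a feedback gene rather than an enzyme, stood at 188, 278 and 340 TPM against 54.5 to 122 (1.49 ± 0.066, limma adjusted p = 4.13e-47).

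The rises ran down the whole cholesterol route under dexamethasone. The mevalonate enzymes HMGCS1 and MVK differed by 1.43 and 1.24, the isoprenoid enzymes IDI1 and FDPS by 1.00 and 1.19, the squalene enzymes FDFT1, SQLE and LSS by 1.01, 1.04 and 1.19, and the later sterol enzymes CYP51A1, TM7SF2, NSDHL, HSD17B7 and EBP by 1.01 to 1.41. PMVK, the phosphomevalonate kinase, was the sterol gene that did not pass the test, at 0.11 ± 0.056 (limma adjusted p = 0.191), and 8 of its 11 libraries lay within the non-toxic range. SREBF2 rose least of those called, by 0.36 ± 0.081 (limma adjusted p = 0.00036), above the non-toxic libraries on 10 of 11 days. Of the other pathway genes 11 of 21 were higher and none of the 21 was called lower. They included MSMO1 (1.22 ± 0.048) and PCYT2 (1.04 ± 0.042), a phosphatidylethanolamine synthesis gene. The SREBP processing genes SCAP, MBTPS1 and INSIG2 had differences of 0.01, 0.01 and 0.06, with limma adjusted p-values of 0.602 or above.

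Of the fatty acid genes under dexamethasone 9 were higher, and the 1 lower was SREBF1. ACSS2 had a lowest value of 67.3, a median of 76.1 and a highest of 179 TPM, against non-toxic day means of 20.5 to 34.0 (log2 difference 1.51 ± 0.052, limma adjusted p = 1.95e-60). FASN stood at 426, 601 and 771 TPM against 135 to 352 (1.21 ± 0.076, limma adjusted p = 1.74e-31). ELOVL6 stood at 45.3, 87.2 and 162 TPM against 32.2 to 57.8 (0.98 ± 0.079), and SCD at 914, 1414 and 2461 TPM against 532 to 1499 (0.97 ± 0.071). SREBF1 itself stood at 36.4, 51.5 and 62.1 TPM against 47.8 to 76.5, a difference of -0.24 ± 0.042 (limma adjusted p = 3.23e-06). It lay below all non-toxic libraries on 7 of 11 days and above them on 1, day 39. The sterol efflux genes ABCG1 and ABCA1, which carry cholesterol out of cells, were lower by 1.84 and 1.37 on the log2 scale. The other genes listed with them were mixed. MYLIP was lower (-0.33), APOE (0.37) and CYP46A1 (0.27) were higher, and NR1H3 (0.02) and NR1H2 (-0.05) were not called.

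**Figure D3:**
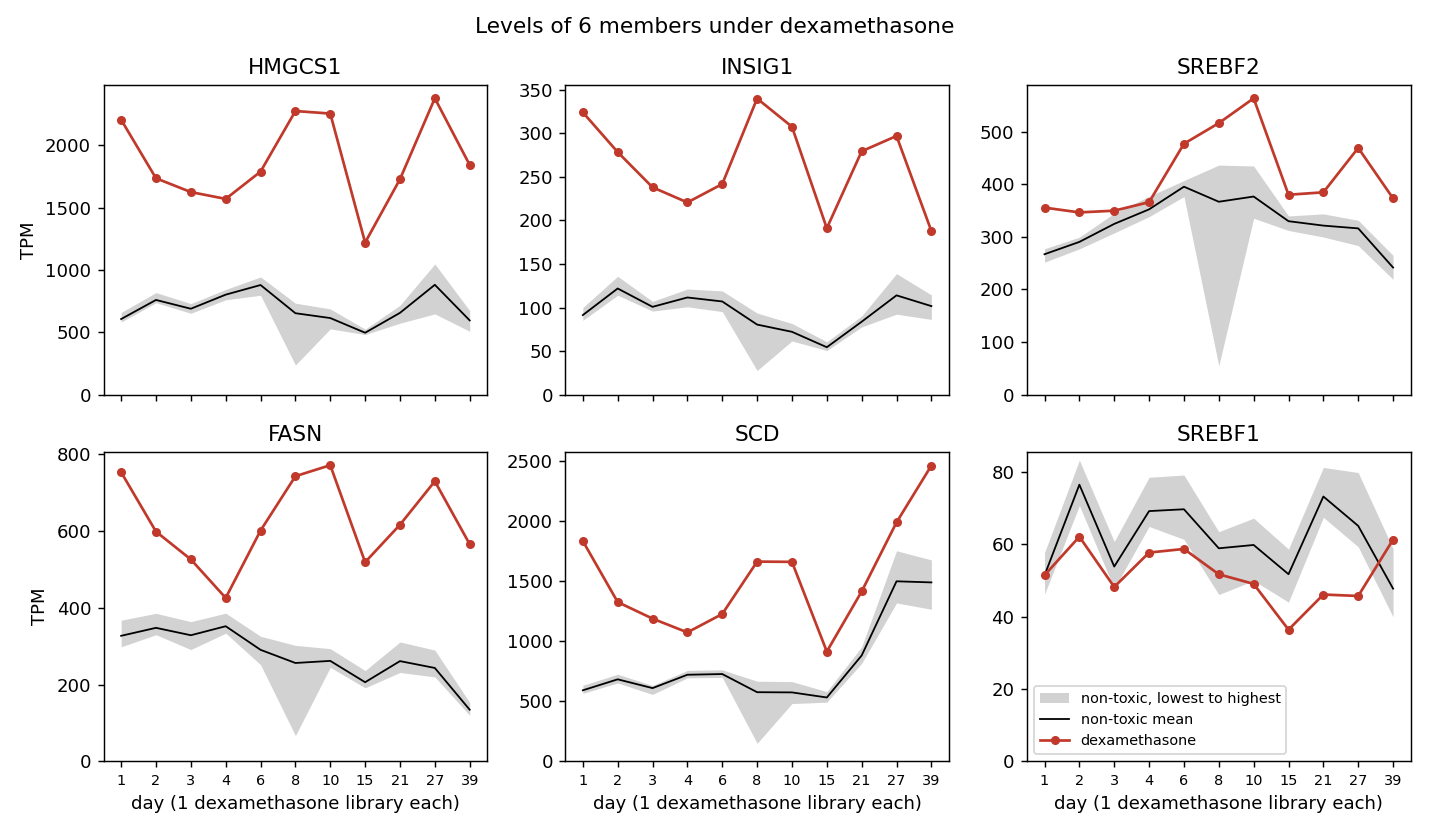
TPM of 6 members by day in dexamethasone libraries (red points) with the non-toxic mean (black line) and the span from the lowest to the highest non-toxic library (grey). HMGCS1, INSIG1, FASN and SCD lie above the grey span on every day, while SREBF1 lies below it on 7 days. The low edge on day 8 is 1 ibuprofen library.

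By library, the sterol median under dexamethasone lay between 0.86 (day 4) and 1.47 (day 10) and the fatty acid median between 0.36 (day 4) and 1.21 (day 8). The ibuprofen library lowers the day 8 mean, and the middle non-toxic library itself lay at 0.20 for the fatty acid genes that day. The sterol median was the larger on all 11 days, by a mean of 0.42 ± 0.20 (SD, n = 11). In the dexamethasone libraries of days 4, 15 and 21 the slope of a gene's deviation on log2 transcript length was -0.13, -0.26 and -0.19. The part of length in the gap between the branches was not tested. Later libraries differed more: 17 members differed between days 8 to 39 and days 1 to 6, against 5.55% of all genes, 16 of them with a larger difference late. TMEM97 went from 1.4 to 2.38 and FASN from 0.80 to 1.57, while LPIN1 went from 0.64 to 0.23. On day 21, 16 of 19 libraries of toxic-labelled compounds had lower values for longer transcripts, and without days 15 and 21, 11 members differed. Against the 11 DMSO libraries alone, 27 members were higher and SREBF1 was no longer called. The summed astrocyte markers were 0.69 to 1.38 times the non-toxic mean, above the non-toxic range in 6 of 11 libraries and below it in 2. Of the 7 astrocyte markers ALDH1L1 (1.30 over all days, 2.11 on days 8 to 39) and GJA1 (0.44) were higher, and AQP4 (-0.26) and S100B (-0.25) lower. Progenitor, oligodendrocyte and dividing cell sums were each below the range in 5 libraries. The part of these markers in the result was not tested.

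Amiodarone, an antiarrhythmic drug given at 1 µg/ml for 39 days, gave a smaller rise that included SREBF1. Of the 30 genes 20 were higher (15 sterol, 5 fatty acid) and 0 lower at the adjusted threshold, where 5.29% of all genes were higher and 17.4% lower. FDPS had a lowest value of 304, a median of 574 and a highest of 658 TPM over 11 libraries, each above the non-toxic libraries of its day, and differed by 0.40 ± 0.029 (limma adjusted p = 2.16e-24). MVD differed by 0.50 ± 0.060, LSS by 0.37 ± 0.038 and INSIG1 by 0.36 ± 0.061. SREBF1 stood at 66.4, 91.4 and 115 TPM by the same 3 measures against day means of 47.8 to 76.5 (0.58 ± 0.040, limma adjusted p = 3.95e-26). It was above the non-toxic libraries on all 11 days, as was FADS2 (0.43 ± 0.041).

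SCD under amiodarone was above the non-toxic range on 8 days but below it on days 15 and 21, at 454 and 537 TPM against means of 532 and 882. In those 2 libraries the slope of a gene's deviation on log2 transcript length was -0.34 and -0.47, and the fatty acid medians were -0.28 and -0.60 beside 0.17 to 0.59 on other days. Long transcripts such as SCD, ACACA and STARD4 track this slope across libraries, and its part in these values was not tested. Between windows 7 members differed, against 17.8% of all genes, but 0 did without days 15 and 21. 12 members were called with DMSO libraries as the only controls. Mesenchymal markers were 1.08 to 2.76 times their non-toxic sum, above the non-toxic range on 7 days, and their part in the result was not tested.

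Bis-I, given at 4 µM, also had 23 members higher and 0 lower at the adjusted threshold (16 sterol and 7 fatty acid), where 10.2% of all genes were higher and 32.3% lower, but its days did not agree. TMEM97 was 455 TPM on day 1 against a non-toxic mean of 141, 87.7 against 112 on day 4, 78.0 against 96.7 on day 6 and 140 against 42.6 on day 15. FDPS went from 1315 TPM on day 1 (mean 513) to 337 and 292 TPM on days 4 and 6 (491 in both) and 512.6 TPM on day 15 (276). So the sterol median was 1.28 on day 1, -0.68 on day 4, -0.58 on day 6 and 0.18 to 0.81 from day 8 on. Over all days TMEM97 differed by 0.77 ± 0.072 and MVD by 0.58 ± 0.095. FASN (0.85 ± 0.084) and ACSS2 (0.73 ± 0.072) led the fatty acid genes. SREBF1 was the exception to the swings, above the non-toxic libraries on all 11 days, from 62.6 to 117 TPM (0.53 ± 0.041, limma adjusted p = 1.07e-23). Against DMSO libraries alone 7 members were called, and 9 members differed between windows (21.2% of all genes), 3 without days 15 and 21. Oligodendrocyte markers were below the non-toxic range in 10 of 11 libraries and mesenchymal markers in 8, with no test of their part. The slope on log2 transcript length was -0.17, -0.24, -0.22 and -0.36 on days 4, 10, 15 and 21, and its part was not tested.

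2-Imidazolidinethione, a cyclic thiourea given at 0.4 mM, changed few genes in all, 0.178% higher and 0.306% lower, yet 6 of its 7 called members were sterol genes that rose. FDFT1 had a lowest value of 292, a median of 514 and a highest of 572 TPM in 10 libraries, each above the non-toxic libraries of its day. Its log2 difference was 0.20 ± 0.027 (limma adjusted p = 5.2e-08). TMEM97 (0.30 ± 0.047) and ACAT2 (0.22 ± 0.030) were above the non-toxic range on 9 of 10 days, and FDPS (0.18 ± 0.028) on 6. NSDHL and IDI1, both at 0.17, completed the 6. SREBF1 was the 1 member lower, by 0.19 on the log2 scale, with 5 of 10 libraries below the range. The sterol median was above the non-toxic range on all 10 days, between 0.08 and 0.29, while the fatty acid median ran from -0.16 to 0.22. No fatty acid enzyme was called, the closest limma adjusted p being 0.694. On days 4 and 10 the slope on log2 transcript length was -0.13 and -0.14, and its part was not tested. None of the 30 differed between windows (0.0429% of all genes), though 3 did without ibuprofen among the controls. Against DMSO libraries alone 0 members were called, and with ibuprofen left out of the controls 15 were.

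The lowest values came from compounds sampled mainly on days 1 to 6. For comparison, the non-toxic means on days 1, 2, 3, 4 and 6 were 606, 760, 689, 802 and 879 TPM for HMGCS1, 592, 683, 610, 721 and 727 TPM for SCD, and 51.4, 76.5, 53.9, 69.2 and 69.7 TPM for SREBF1.

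Cytosine Beta-D-arabinofuranoside (AraC, 5 µM), a nucleoside analogue that blocks DNA synthesis, had 27 members lower and 3 higher, where 27.2% of all genes were lower and 40.9% higher. HMGCS1 was at 382, 446, 409, 264 and 243 TPM on days 1, 2, 3, 4 and 6, below every non-toxic library each day, a difference of -1.13 ± 0.063 (limma adjusted p = 1.51e-28). SQLE, the squalene epoxidase, differed by -0.83, DHCR7 by -0.81 and LSS by -0.78. SREBF1 was at 40.3, 41.6, 19.1, 19.4 and 23.2 TPM (-1.19 ± 0.073, limma adjusted p = 4.26e-26) and SCD at 409, 405, 364, 233 and 231 TPM (-1.06 ± 0.059). FASN (-0.92) and FADS2 (-0.72) followed. The 3 risers, all in the sterol branch, were PMVK (0.35), TM7SF2 (0.15) and STARD4 (0.12). Among other pathway genes 9 rose and 9 fell, led by FADS3 (1.39), the NADPH-producing malic enzyme ME1 (1.27) and the elongase ELOVL1 (1.18). With DMSO as the sole control, 18 members were called.

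Busulfan (50 µg/ml), a DNA alkylating drug, had 28 members lower and 0 higher at the adjusted threshold, where 35.1% of all genes were lower and 29.5% higher. SREBF1 fell away with time, at 46.8, 41.1, 24.1, 23.1 and 20.6 TPM on days 1, 2, 3, 4 and 6 (-1.08 ± 0.076, limma adjusted p = 3.91e-22). SCD was at 446, 445, 284, 266 and 299 TPM (-0.97 ± 0.050) and HMGCS1 at 428, 491, 377, 281 and 352 TPM (-0.96 ± 0.051). The first day of SREBF1 overlapped the non-toxic libraries, and no other of these values did. LSS (-0.73), DHCR7 (-0.70), SQLE (-0.66), FASN (-0.84) and FADS2 (-0.67) were the next largest. PMVK (0.08) and TM7SF2 (-0.07) were not called. On day 3 the slope on log2 transcript length was -0.34, with no test of its part. The count was 12 with DMSO controls alone.

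5-Fluorouracil (10 µM) had libraries on days 1 to 6, 27 and 39, and 27 members were lower and 0 higher, where 19.1% of all genes were lower and 39.6% higher. TMEM97 had a lowest value of 26.4, a median of 35.0 and a highest of 115 TPM, below the non-toxic libraries on 6 of 7 days (-0.90 ± 0.072, limma adjusted p = 3.76e-21). INSIG1 was lower on all 7 days, at 43.1, 54.3 and 95.8 TPM by the same measures (-0.80 ± 0.054). So were SCD (-0.81 ± 0.046), FADS1 (-0.78 ± 0.047) and FADS2 (-0.63 ± 0.045). SREBF1 (-0.75), LSS (-0.60) and STARD4 (-0.56) were lower on 5 or 6 days. By day 39 the sterol median had reached 0.17, from -0.66 on day 6, while the fatty acid median was -0.21. Set against DMSO alone, 8 were called.

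In these 3 sets of cultures markers of other cells moved as well. The mesenchymal marker sum was 1.38 to 23.9 times the non-toxic mean under AraC, 1.68 to 33.2 times under busulfan and 0.11 to 5.19 times under 5-fluorouracil. The sum of 6 genes of dividing cells was 0.56 to 0.82, 0.19 to 0.91 and 0.09 to 1.00 times. Their part in the lower sterol and fatty acid genes was not tested.

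Vincristine (1 nM), which binds tubulin, had the lowest medians of the 44 compounds fitted, with 28 members lower and 1 higher (37.9% of all genes lower, 33.1% higher), but 1 library set their size. FASN was at 236, 246, 227, 26.3 and 139 TPM on days 1, 2, 3, 4 and 6, where non-toxic means were 327, 348, 328, 352 and 290.5. LSS was at 184.5, 201, 213, 18.3 and 169 TPM and SREBF2 at 225, 271, 291, 21.9 and 233 TPM. Over all days FASN differed by -1.25 ± 0.15, SREBF1 by -1.19 ± 0.12, LSS by -1.13 ± 0.16 and SQLE by -1.12 ± 0.20. Without the day 4 library 28 members were lower and 0 higher, with FASN at -0.64, SREBF1 at -0.84, LSS at -0.45 and SQLE at -0.27. The branch medians of that library were -1.97 and -2.27 beside -0.17 to -0.66 on the other days. Its markers stood apart too, with 6 neuron markers summing to 210 TPM where the non-toxic libraries had 1611 to 1753, and 5 progenitor markers to 611 against 4063 to 4462, and their part was not tested. On day 6 the slope on log2 transcript length was -0.10, with no test of its part. 0 members were called with DMSO libraries as the only controls.

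Okadaic acid (3 nM), a protein phosphatase inhibitor, had 22 members lower and 4 higher, where 39.8% of all genes were lower and 35.1% higher. TMEM97 was at 98.9, 92.3, 44.7, 27.0 and 17.8 TPM over days 1 to 6 (-1.38 ± 0.091, limma adjusted p = 2.52e-24). FDPS (-0.80 ± 0.041), HSD17B7 (-0.72) and SREBF2 (-0.71) were next. SREBF1 differed by -1.09, FADS2 by -0.73 and SCD by -0.65. LPIN1 went up, at 39.4, 35.3, 47.0, 53.9 and 57 TPM against means of 23.8 to 24.8 (0.88 ± 0.048, limma adjusted p = 6.4e-29). It was the highest LPIN1 difference of the 28 toxic-labelled compounds fitted. DHCR7 (0.42), TM7SF2 (0.35) and ELOVL6 (0.19) were the other risers. Neuron markers summed to 0.04 to 0.46 times the non-toxic mean, with no test of their part. The slope on log2 transcript length was -0.12, -0.18 and -0.25 on days 3, 4 and 6, and its part was not tested. With DMSO as the sole control, 16 members were called.

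Cadmium (50 µM) had 21 members lower and 5 higher, where 59.4% of all genes were lower and 24.6% higher and the median of all genes was -0.40, so the sterol median of -0.29 lay above the median of all genes and the fatty acid median of -0.50 below it. SQLE (-1.02 ± 0.033), TMEM97 (-0.93) and NSDHL (-0.84) fell, and all 10 fatty acid genes did, led by SREBF1 (-1.32 ± 0.065), ELOVL6 (-0.81), FASN (-0.76) and ACACA (-0.75). HSD17B7, a sterol ketoreductase, rose, at 110, 67.1, 68.6, 53.9 and 79.5 TPM against 39.8 to 52.1 (0.72 ± 0.069, limma adjusted p = 2.53e-16). IDI1 (0.35), HMGCS1 (0.24), MVD (0.16) and FDPS (0.14) were also higher. Reads of HSD17B7 and FDPS can be shared with near-identical pseudogenes, and those of ACAT2 with the overlapping gene TCP1, so these 3 are less certain in every comparison. ME1 rose by 4.51 ± 0.10. In all 5 libraries longer transcripts had lower values, with slopes of -0.16 to -0.22 on log2 length. Mesenchymal markers were 0.12 to 0.61 times and dividing cell genes 0.19 to 0.81 times the non-toxic sum, below the range in all 5, and progenitor markers were below it in 4. The part of length and of these markers was not tested. The count was 17 with DMSO controls alone.

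Arsenic (5 µM) had 18 members lower and 4 higher over all its days (46.7% and 34.8% of all genes), and its values changed sign between days. INSIG1, IDI1 (both 0.41), ACSS2 (0.40) and LPIN1 (0.14) were the higher ones. LSS was at 61.7, 101, 204, 226 and 222 TPM on days 1, 2, 3, 4 and 6 against means of 246 to 288. INSIG1 was at 74.2, 104, 186, 195 and 202 TPM against 91.4, 122, 101, 112 and 107, below the mean on days 1 and 2 and above it afterwards. The sterol median was -0.91 on both of the first days and 0.26, 0.31 and 0.10 on days 3, 4 and 6, and the fatty acid median -1.003 and -0.83, then 0.08 to 0.10. SREBF1 (-1.40 ± 0.071), SREBF2 (-0.84 ± 0.025), FASN (-0.98 ± 0.064) and ACACA (-0.71) were below every non-toxic library on all 5 days. PMVK (-0.51), SQLE (-0.64) and LSS (-0.86) were too, and FADS2 (-0.50) was on 3 of them. Longer transcripts had lower values on days 1, 3, 4 and 6, with slopes of -0.11, -0.17, -0.24 and -0.24 on log2 length. The part of length in these values was not tested. Mesenchymal markers were 1.12 to 55.9 times and dividing cell genes 0.10 to 0.36 times the non-toxic sum, with no test of their part. Set against DMSO alone, 7 were called.

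**Figure D4:**
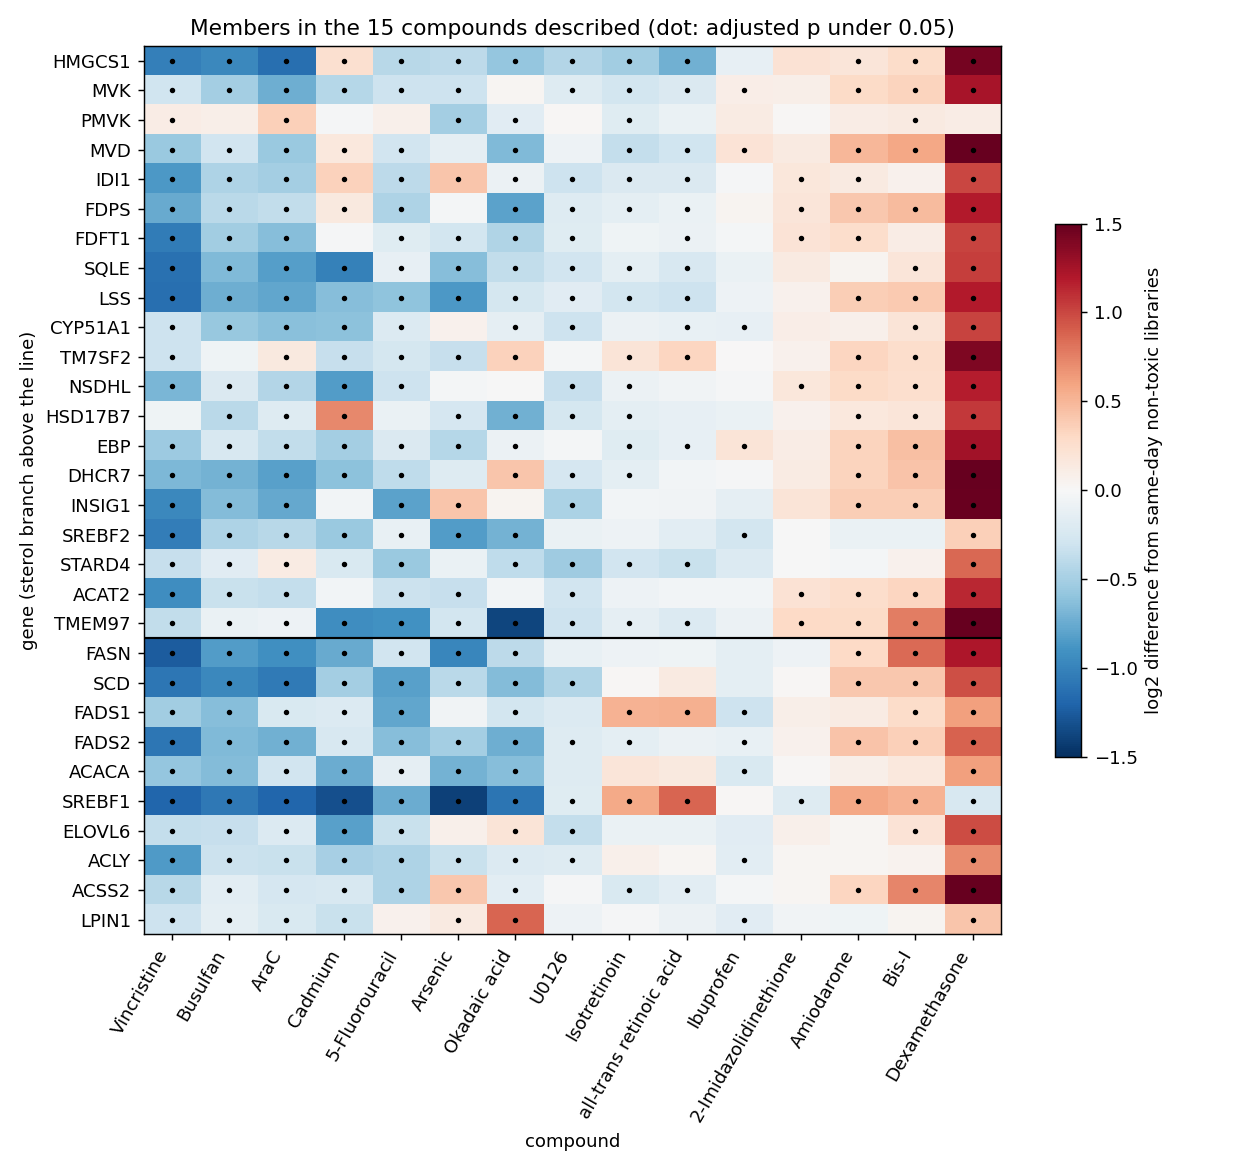
Log2 difference of each of the 30 genes (rows, sterol branch above the line) from the same-day non-toxic libraries for the 15 compounds described (columns, ordered by the median of the members), with a dot where the limma adjusted p is under 0.05 and the colour scale ending at 1.5 in each direction. SREBF1 is higher under both retinoids, amiodarone and Bis-I, and lower under dexamethasone, where 28 other genes are higher.

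U0126 (10 µM), an inhibitor of the kinase MEK, had 20 members lower and 0 higher at the adjusted threshold, where 15.3% of all genes were lower and 6.55% higher, and the difference lay mostly in the early days. HMGCS1 was at 310, 404, 410, 535 and 770.5 TPM on days 1 to 6, below the non-toxic libraries each day, within their range on days 8, 10, 27 and 39, and below it again on day 15 (314 against a mean of 497 TPM). STARD4 (-0.53 ± 0.106, limma adjusted p = 2.6e-05), INSIG1 (-0.47 ± 0.066), HMGCS1 (-0.44 ± 0.065) and NSDHL (-0.35 ± 0.038) were the largest sterol differences. SCD (-0.46 ± 0.076), ELOVL6 (-0.35), FADS2 and ACLY (both -0.19) were those of the fatty acid genes. Of the 30 genes 18 differed between windows, against 8.33% of all genes, with HMGCS1 at -0.68 early and -0.20 late and FASN at -0.45 early and 0.25 late. SCD stayed low late, at 798 TPM on both day 27 and day 39 against means of 1499 and 1489. Astrocyte markers were below the non-toxic range in 9 of 10 libraries and mesenchymal markers in 9, with no test of their part. The slope on log2 transcript length was -0.29, -0.13 and -0.20 on days 1, 4 and 15, and its part was not tested. 7 members were called with DMSO libraries as the only controls.

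Under the 2 retinoids the sterol median lay below the fatty acid median on most days. The retinoids were all-trans retinoic acid at 1.7 µM and its isomer isotretinoin at 0.5 µg/ml. Their doses are given in different units, so values stand side by side without a comparison. The first had 13 members lower and 3 higher (26.4% and 21.2% of all genes) and the second 16 lower and 3 higher (21% and 20.2%). HMGCS1 was lower under each, with a lowest value of 332, a median of 408 and a highest of 760 TPM for retinoic acid (-0.72 ± 0.058, limma adjusted p = 2.06e-23) and 343, 463 and 823 TPM for isotretinoin (-0.52 ± 0.061, limma adjusted p = 2.36e-13). STARD4 differed by -0.33 and -0.28, LSS by -0.31 and -0.28, MVD by -0.30 and -0.35, and MVK by -0.22 and -0.28. SREBF1, FADS1 and TM7SF2 rose under both. SREBF1 was at 79.1, 116 and 164 TPM under retinoic acid, above the non-toxic libraries on all 11 days (0.87 ± 0.046, limma adjusted p = 8.19e-40), and at 63.5, 88.9 and 131 TPM under isotretinoin, above them on 10 (0.56 ± 0.044, limma adjusted p = 1.8e-24). FADS1, the other polyunsaturated fatty acid desaturase, differed by 0.53 ± 0.084 and 0.52 ± 0.084. TM7SF2, a sterol reductase, differed by 0.32 and 0.19.

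The fatty acid median exceeded the sterol median on 10 of 11 days under retinoic acid and on all 11 under isotretinoin. Over these libraries the fatty acid median averaged 0.08 ± 0.15 and 0.06 ± 0.15 (SD, n = 11 each). The sterol median averaged -0.13 ± 0.17 and -0.14 ± 0.23. TM7SF2 changed between windows, from -0.06 early to 0.64 late under retinoic acid and from -0.08 to 0.42 under isotretinoin, and INSIG1 from -0.27 to 0.14 and from -0.29 to 0.16. In all 11 members differed between windows under retinoic acid (35.6% of all genes) and 17 under isotretinoin (28%), or 4 and 10 without days 15 and 21. Slopes on log2 transcript length were -0.18, -0.41 and -0.13 on days 15, 21 and 39 under retinoic acid. Under isotretinoin they were -0.23 and -0.10 on days 21 and 39. The part of length was not tested. On days 1 to 6 alone, 25 members were called under retinoic acid, a count without the share of all genes. Against DMSO libraries alone 6 were called under each. ACSS2 was lower under both (-0.15 and -0.23) and FADS2 under isotretinoin (-0.15). ELOVL5, a polyunsaturated elongase among the other pathway genes, rose by 0.82 ± 0.055 and 0.53 ± 0.054. Summed progenitor markers were below the non-toxic range in 10 of 11 libraries of each, with no test of their part. NES, HES5 and VIM were lower under both, while SOX2 (-0.08 and 0.08) and PAX6 (-0.05 and 0.11) were not called over all days, and PAX6 was lower on days 1 to 6 (-0.43 and -0.31) and higher on days 8 to 39 (0.28 and 0.47).

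**Figure D5:**
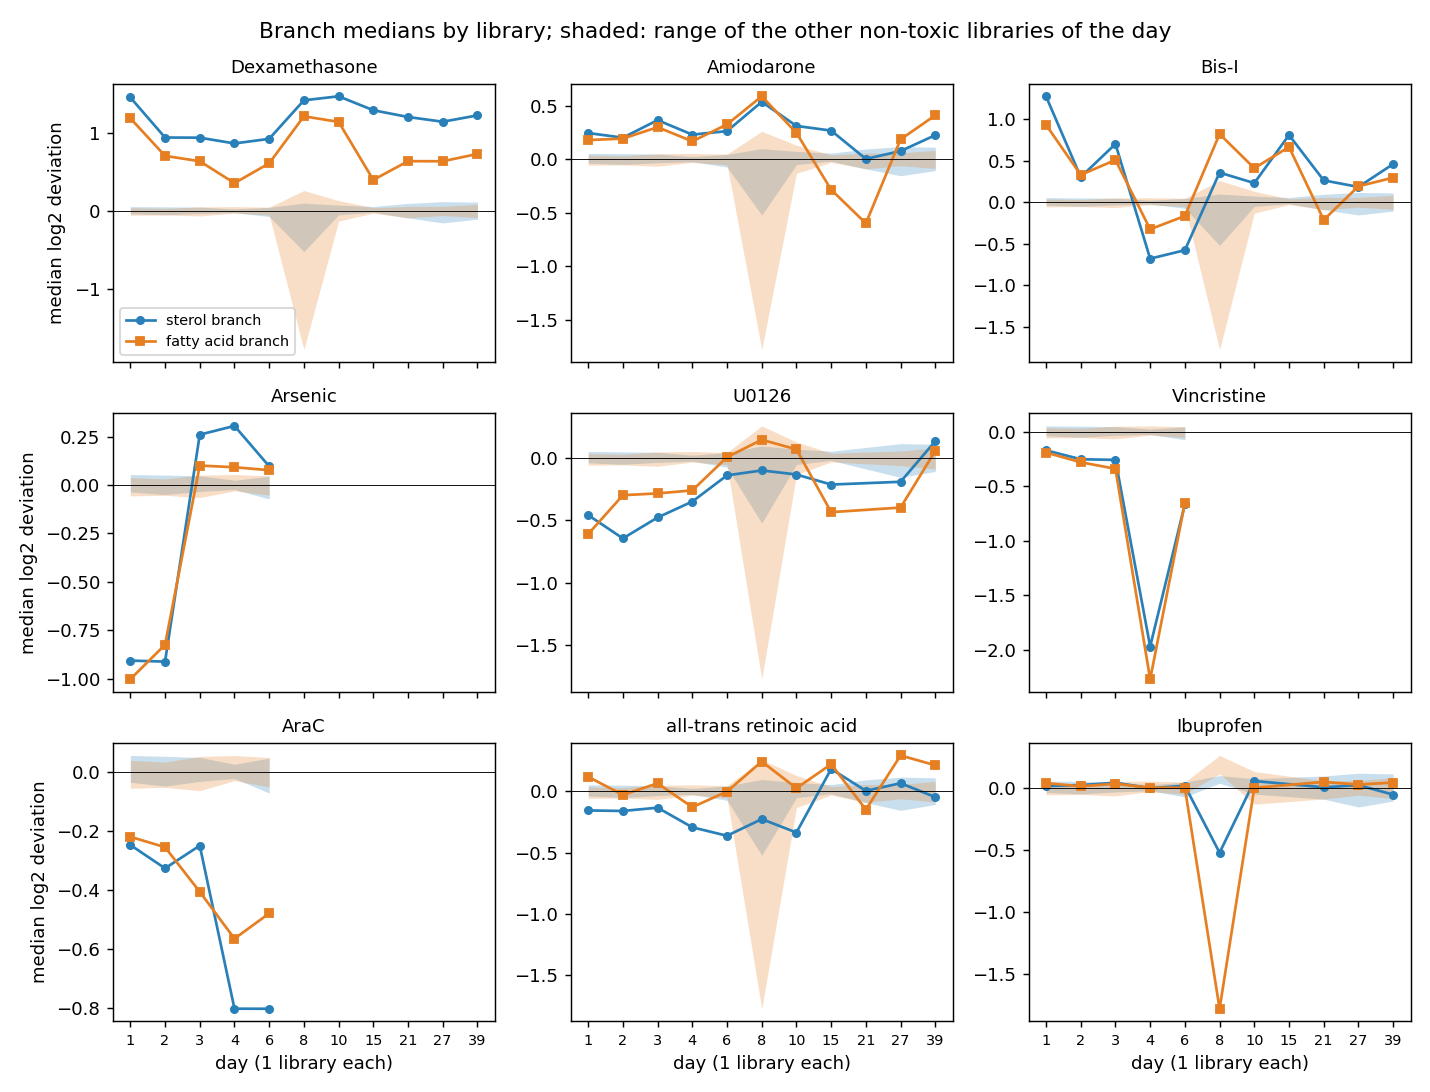
Median log2 deviation of the sterol (blue) and fatty acid (orange) genes in each library of 9 compounds, by day, with bands for the range of the other non-toxic libraries of the day. Dexamethasone is above the bands on all 11 days, arsenic crosses 0 between days 2 and 3, and vincristine drops on day 4. The deep band on day 8 is the ibuprofen library.

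Ibuprofen (20 µg/ml) was the non-toxic compound with at least 5 members called, 3 higher and 7 lower, where 2.38% of all genes were higher and 29.2% lower, and 1 library made these calls. On day 8 SREBF2 was at 54.9 TPM against a mean of 401 in the other non-toxic libraries, FADS1 at 11.8 against 94.9 and ACACA at 6.62 against 50.6, while MVD was at 946.5 against 303 and EBP at 213 against 129. Over all days SREBF2 differed by -0.28 ± 0.084, CYP51A1 by -0.12, FADS1 by -0.31 ± 0.085 and ACACA by -0.23. LPIN1 (-0.17), ACLY (-0.16), FADS2 (-0.11), MVD (0.21), MVK (0.10) and EBP (0.19 ± 0.039) were also called. Without that library 1 member was called. Its length slope was -0.73 and its branch medians were -0.52 and -1.78, while in the other 9 ibuprofen libraries both medians lay between -0.05 and 0.05. Between windows 21 members differed, against 40.8% of all genes. This library also lowers the day 8 means used for other compounds.

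Few of these genes were called between the toxic-labelled and non-toxic classes. On days 1 to 6, 29 of the 30 differences were below 0 (median -0.11, beside -0.02 over all genes). On days 8 to 39, 7 were (median 0.09, beside -0.02). With 1 value per compound, 0 of the 30 genes were called on days 1 to 6 (28 against 16 compounds, limma), where 0.294% of all genes were. At an unadjusted p under 0.05 there were 5 of the 30, all lower, where 4120 of all 16318 genes passed that mark, with FASN at -0.33 ± 0.11 and SREBF2 at -0.24 ± 0.077 (limma adjusted p = 0.111 and 0.106). On days 8 to 39 (21 against 12 compounds) 1 was called, TM7SF2, where 17.3% of all genes were. Its mean deviation was 0.29 ± 0.35 (SD) over toxic-labelled and 0.0048 ± 0.056 over non-toxic compounds, a difference of 0.29 ± 0.10 (limma adjusted p = 0.0437). The highest single compound was at 1.67, and without days 15 and 21 none of the 30 was called.

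Over the 28 toxic-labelled compounds fitted, SREBF1 was lower in 16 and higher in 5, and SREBF2 was lower in 10 and higher in 1, dexamethasone. HMGCS1 was lower in 12 and higher in 5, LSS lower in 14 and higher in 3, and FDPS higher in 9 and lower in 9. For 27 of the 30 genes the highest difference was that of dexamethasone, the exceptions being PMVK, SREBF1 and LPIN1. Across all 414 libraries, the deviation of one gene from the same-day non-toxic mean correlated with that of another at a median Pearson r of 0.62 within the sterol branch, 0.61 within the fatty acid branch and 0.53 between them. In the 148 non-toxic libraries alone these medians were 0.22, 0.77 and 0.37. Those libraries include ibuprofen on day 8, which stood far from the rest with branch medians of -0.52 and -1.78. The part of that library in the non-toxic correlations was not tested. Correlation with the mean of the other sterol genes was highest for DHCR7 (0.89) and lowest for PMVK (-0.08), beside a median of 0.16 with the sterol mean over 10298 genes that are no members. These are descriptions over libraries that share compounds, days and length trends. STARD4, SREBF2, ACACA and LPIN1 correlated with the length slope itself at 0.72 to 0.75, against 0.34 for FASN and HMGCS1.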

How the data were processed

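The series holds 414 sequenced RNA libraries. The authors deposited gene levels in TPM. The submitters' processing notes name CASAVA 1.8.2, Bowtie 0.12.8, RSEM 1.2.1 and hg19. No counts were used here, so the depth is unknown. Columns summed to 999999.07 to 1000001.05, and 11377 to 17188 genes per library reached 1 TPM. TPM is a share of each library, so a large change in some genes moves all others. Whether counting used strand is not given in the sources used here.

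Values were taken as log2(TPM + 1), a scale that understates the change of low genes. Genes at 1 TPM or more in at least 5 libraries were tested, 16318 of 19084, with limma 3.58.1 (R 4.3.3) and an intensity trend. Benjamini-Hochberg adjustment ran over all tested genes, with a threshold of 0.05. A compound's libraries were set against the same-day non-toxic ones in a fit with a term for each day, and libraries sharing a compound were treated as correlated (0.021). Days 8 to 39 were compared with days 1 to 6 for compounds with at least 3 libraries in each. Classes were compared with 1 value per compound, and time courses in the non-toxic libraries. The trend of deviations with transcript length was taken over 9610 of 10328 genes at 10 TPM (93%), and 60 libraries had a slope under -0.1, 57 of them toxic-labelled.

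The members and lists were chosen with earlier results of these data known. The 8 toxic-labelled compounds with the most members called, and non-toxic ones with at least 5, were described by rule, 6 more were added after their values were seen, and 1 compound with 1 library had no fit. In time and class comparisons the members named were the 3 largest rises and falls of each branch among those called, and within compounds the 4 largest of each branch, with others added for contrast. The alternatives were another pseudocount (0.1), no filter, centring, leaving out libraries, ibuprofen, days 15 and 21 or libraries with a length trend, days 1 to 6 alone, DMSO controls alone, and fits with or without the block. The fits were tested on simulated data.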

Additional observations from a re-analysis of the deposited data

Results flagged for a closer look

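Groups of 4 to 10 libraries were tested for a single library far from the others, by branch, within a compound and within a day of the non-toxic compounds. Of 24 tests 7 found one, but they overlap and name only 3 libraries, so the rate of about 1 in 20 that chance gives for 1 group is no measure of them together. The ibuprofen library of day 8 had a sterol median of -0.52 and a fatty acid median of -1.78, far from the other ibuprofen libraries and from the other non-toxic libraries of day 8. The vincristine library of day 4 had medians of -1.97 and -2.27. The naproxen sodium library of day 15 had a sterol median of 0.056, above the other 6 non-toxic libraries of that day.

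The difference from the non-toxic libraries changed between days 1 to 6 and days 8 to 39 by the limma test of that change, at an adjusted p under 0.05, for 17 members under dexamethasone (5.55% of all genes), 18 under U0126 (8.33%), 17 under isotretinoin (28%), 11 under retinoic acid (35.6%), 9 under Bis-I (21.2%), 7 under amiodarone (17.8%) and 21 under ibuprofen (40.8%). For retinoic acid the members' share of 30 is near that of all genes.

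Maneb (60 µM) had only its day 1 library and entered no fit. Its sterol median was -0.87 and its fatty acid median -2.60, both below all non-toxic libraries of that day. The slope of its deviations on log2 transcript length was -0.85, and the part of length in these medians was not tested.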

How the results depend on the processing

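Of 2046 recomputed gene values, 1961 kept their direction and side of the threshold, 76 kept only the direction and 9 changed sign. Of 293 recomputed counts and branch values, 259 stayed within the tolerance and 34 did not. The causes were not tested. The recomputed counts below stand without the share of all genes called, so they do not tell the members from other genes.

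With only DMSO libraries as controls, which leaves few libraries, the members called were 18 for AraC, 0 for vincristine, 12 for busulfan, 8 for 5-fluorouracil, 17 for cadmium, 16 for okadaic acid, 7 for Bis-I, 0 for ibuprofen, 12 for amiodarone, 7 for U0126, 7 for arsenic, 6 for each retinoid and 0 for 2-imidazolidinethione. Without libraries of a strong length trend they were 1 for ibuprofen, 26 for retinoic acid and 13 for 2-imidazolidinethione. On days 1 to 6 alone they were 0, 25 and 11. For 2-imidazolidinethione they were 11 after centring on the median of all genes and 15 without ibuprofen.

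Under ibuprofen ACACA and ACLY changed sign to 0.038 and 0.030 without libraries of a strong length trend, to 0.041 and 0.032 without the day 8 library, and to 0.044 and 0.036 on days 1 to 6 alone, where SREBF2 was at 0.00091 and CYP51A1 at 0.0032. TM7SF2 under retinoic acid was at -0.055 on days 1 to 6 alone.

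Leaving out each library in turn gave 1 to 15 members for ibuprofen, with ACACA from -0.27 to 0.041 and ACLY from -0.19 to 0.032, and 6 to 13 for 2-imidazolidinethione. The count of 1 and that of 13 were each without the day 8 library of the compound. Between windows, leaving out days 15 and 21 gave 11 for dexamethasone, 3 for Bis-I, 0 for amiodarone, 4 for retinoic acid and 10 for isotretinoin. Leaving ibuprofen out of the controls, chosen after seeing the data, gave 17 for amiodarone and 3 for 2-imidazolidinethione. The class comparison on days 8 to 39 had 0 members called with no filter on low values, 0 without days 15 and 21 and 3 without ibuprofen. The mean sterol minus fatty acid difference under AraC was -0.10 with branch medians and reversed to 0.092 with branch means.

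With compound as a replicate block, pairing the days of a compound, 24, 27, 17 and 27 members were called in the 4 time comparisons, the counts without the block. Pairs of libraries of 1 compound correlated over 0.1 in 4 of 16, 4 of 15, 4 of 11 and 8 of 11 cases, and leaving the block out of the compound fits changed no call of a named gene.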
